A study of Mus musculus with 14 samples.

Results

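Fibronectin and the proteins of elastic fibres were followed through mouse mammary epithelial cells treated with TGF-β. The set was fixed by name as 10 genes of the 23284 listed: Fn1, Eln, Fbn1, Fbn2, Fbln1, Fbln2, Fbln5, Efemp1, Efemp2 and Emilin1. All 10 were found under these symbols. EpH4 cells are a mouse line from mammary gland epithelium, and EpRas cells were derived from them by transformation with H-Ras. The 4 untransfected groups were EpH4 cells and EpRas cells, each left untreated or treated with 1 ng/ml TGF-β3 for 48 h, with 2 libraries in each. A further 6 libraries came from transfected EpRas cells that received a control siRNA (siNC), siRNA pair 1 or siRNA pair 2. Each pair targets both Etv4 and Etv5, which encode transcription factors of the PEA3 group of the ETS family. These cells were also left untreated or given TGF-β3 for 48 h, and there is 1 library for each condition. EpH4 cells were grown in 10% serum and EpRas cells in 4%, so transformation and serum cannot be told apart in any comparison of the lines. EpRas is 1 derived line. The study describes its untransfected samples as biological replicates, 2 for each group, without saying how the cultures were kept apart.

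Fibronectin is a secreted dimer that cells assemble into fibrils through integrin α5β1, and epithelial cells that take on a mesenchymal form in response to TGF-β are known for making more of it. An elastic fibre is a core of crosslinked elastin on a scaffold of microfibrils, whose main component is fibrillin. Fibulins and EMILINs bind elastin and fibrillin and bring the assembling parts together, lysyl oxidases crosslink the elastin, and the latent TGF-β binding proteins tether inactive TGF-β to fibrillin and fibronectin.

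Expression levels are given as FPKM, a count of sequenced fragments scaled to the length of the transcript and to the size of the library. The libraries differed 2.23-fold in relative depth among the untransfected samples and 1.74-fold among the siRNA samples. The epithelial label held for 6 of 8 epithelial markers in EpH4 cells and 7 of 8 in EpRas cells, which reached 5 FPKM. Krt8 and Krt18, the keratins of simple epithelium, were at 794 ± 129 and 1027 ± 149 FPKM (SD, n = 2) in untreated EpH4 cells, and Krt7 was at 2987 ± 619 FPKM. Of the basal keratins, Krt14 measured 356 ± 42.1 FPKM in EpH4 cells without TGF-β, 817 ± 47.3 FPKM with it, and 109 ± 8.62 and 63.4 ± 1.70 FPKM in the same order for EpRas cells, while Krt5 was at or near 0 throughout, and Krt19 was listed at 0 in EpH4 cells. Of 8 fibroblast markers, 3 reached 5 FPKM in treated EpH4 cells (Col1a1, Col1a2 and Pdgfrb at 212, 12.8 and 7.73 FPKM as means) and 1 in each other untransfected group, while Lum and Thy1 were listed at 0 in all of them. The summed level of the 4 endothelial markers did not exceed 2.01 FPKM in any library. In bulk RNA, fewer cells expressing a gene and less of its RNA in each cell cannot be told apart.

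Only 3 of the 10 members, Fn1, Fbln2 and Efemp2, reached 5 FPKM in either table of values. Fn1 and Fbln2 together made up 95.6 to 98.9% of the summed FPKM of the set in the untransfected libraries. Fn1 lay above 98.6% of all genes in untreated EpH4 cells and Fbln2 above 98.0%, while Efemp2 lay above 82.7%. The other 7 members stayed at or below 0.651 FPKM in the untransfected cells. Eln, which encodes elastin itself, was among these 7. Thus the transcripts of fibronectin and of 2 fibulins were abundant in cells with next to no elastin or fibrillin transcript.

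Fn1 (ENSMUSG00000026193, chr1:71585520-71653200 on mm10, minus strand) encodes fibronectin. Its expression level was 240.2 and 284 FPKM in the 2 untreated EpH4 libraries and 576 and 537 FPKM in the TGF-β-treated EpH4 libraries. In EpRas cells it was 314 and 297 FPKM without and 894 and 935 FPKM with TGF-β. Both treated groups lay above both untreated groups, and treated EpRas cells were the highest of all, although the interval that Cuffdiff gives for each library is wide and reaches 0 FPKM in all 4 treated ones. Treatment with TGF-β raised Fn1 from 262 ± 30.6 to 556 ± 27.5 FPKM (SD, n = 2) in EpH4 cells, a ratio of 2.12, and from 305 ± 12.1 to 914 ± 28.7 FPKM in EpRas cells, a ratio of 2.997.

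Fbln2 (ENSMUSG00000064080, chr6:91212455-91272540, plus strand) encodes fibulin-2, a matrix glycoprotein that binds fibronectin, fibrillin-1 and tropoelastin. It was at 208 and 185 FPKM in untreated and 608 and 560.0 FPKM in treated EpH4 cells. In EpRas cells it was at 158 and 144 FPKM without and 277 and 291 FPKM with TGF-β. Here treated EpH4 cells were the highest, and the 4 groups did not overlap. The ratio of the treated to the untreated mean was 2.98 in EpH4 cells and 1.89 in EpRas cells.

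Efemp2 (ENSMUSG00000024909, chr19:5473954-5482517, plus strand) encodes fibulin-4, which links lysyl oxidase to tropoelastin. Its level was 20.2 and 20.2 FPKM in untreated and 29.1 and 31.7 FPKM in treated EpH4 cells. In EpRas cells the libraries gave 14.9 and 13.9 FPKM without and 12.6 and 17.7 FPKM with TGF-β. The treated EpRas libraries lay on either side of the untreated ones, and all 4 EpRas libraries lay below every EpH4 library.

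**Figure D1:**
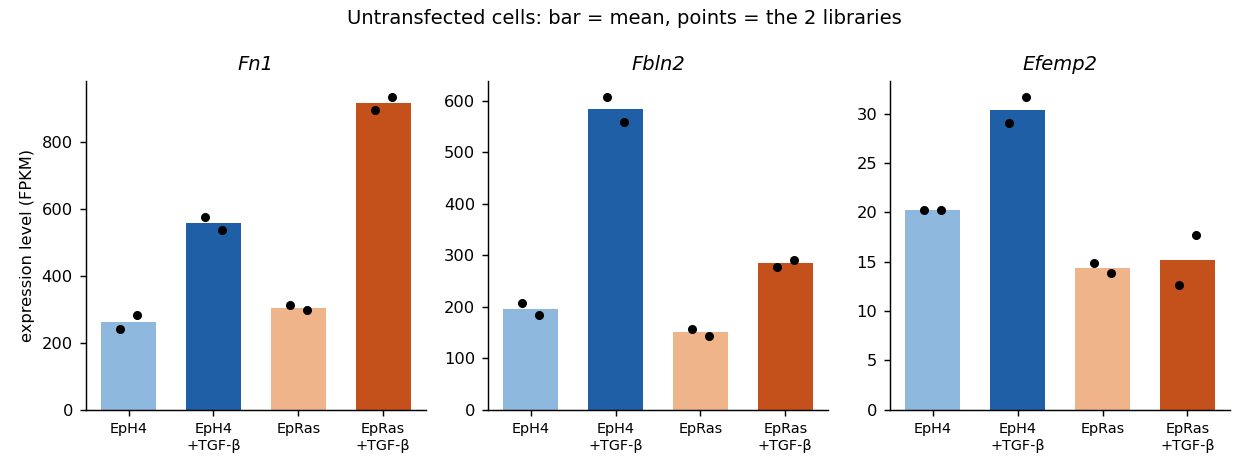
Expression level (FPKM) of Fn1, Fbln2 and Efemp2 in the 4 untransfected groups, where treated cells received TGF-β for 48 h. Bars give the mean and points the 2 libraries of each group. Fn1 was highest in treated EpRas cells (894 and 935 FPKM), whereas Fbln2 and Efemp2 were highest in treated EpH4 cells.

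The groups were compared with limma, a linear model whose estimate of the spread is shared across genes, on log2(FPKM + 1). Adjusted p-values are those of Benjamini and Hochberg, taken over the 9100 genes whose highest untransfected level was 5 FPKM or more. A gene is called where its adjusted p is under 0.05. Fold changes below are on this log2 scale with their standard error (SE).

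In EpH4 cells, TGF-β raised 2 of the 3 tested members, where 9.4% of all tested genes were called. Fbln2 rose by 1.57 (SE 0.15, limma adjusted p = 0.000867) and Fn1 by 1.09 (SE 0.15, adjusted p = 0.00541). Efemp2 had a difference of 0.56 (SE 0.18) that did not pass (adjusted p = 0.113, unadjusted p = 0.0172 by limma). The summed levels of other markers differed between the same groups. The sum of 8 fibroblast markers went from 22.7 to 26.8 FPKM in untreated to 222 to 247 FPKM in treated EpH4 cells, most of it Col1a1 (the main chain of type I collagen) at 212 ± 16.6 FPKM (SD, n = 2), with Dcn, Lum and Thy1 at 0. The sum of 4 smooth muscle and myoepithelial markers went from 0.379 to 1.02 FPKM to 8.90 to 9.21 FPKM, nearly all of it Acta2 at 8.43 FPKM as a mean, with Tagln at 0.627 FPKM and Myh11 and Cnn1 listed at 0. That of 8 epithelial markers went from 4843 to 6166 FPKM to 8516 to 9023 FPKM. The part of these lists in the rise of the members was not tested. With only 1 treated EpH4 library, either of them, Fn1 was no longer called (adjusted p = 0.0715 without replicate 1 and 0.0516 without replicate 2), while Fbln2 remained called. Without either treated EpRas library Efemp2 passed as well (adjusted p = 0.0394 and 0.0356).

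In EpRas cells, TGF-β again raised Fn1 and Fbln2, 2 of the 3 tested members, where 3.82% of all tested genes were called. Fn1 rose by 1.58 (SE 0.15, limma adjusted p = 0.00202) and Fbln2 by 0.91 (SE 0.15, adjusted p = 0.0179). Efemp2 differed by 0.05 (95% interval -0.38 to 0.48, limma adjusted p = 0.929), and its sign rested on 1 library, with 0.28 without treated replicate 1 and -0.18 without treated replicate 2. The sum of the fibroblast markers was lower with TGF-β, at 12.3 to 13.6 FPKM in untreated and 8.42 to 11.1 FPKM in treated EpRas cells. As means, Pdgfrb went from 7.62 to 4.57 FPKM and Col1a2 from 0.687 to 0.267 FPKM. Pdgfra was level at 2.74 and 2.73 FPKM, and Col1a1 went the other way, from 1.69 to 2.19 FPKM. The smooth muscle and myoepithelial sums were 1.98 to 2.25 FPKM and 3.92 to 5.58 FPKM, and the epithelial sums, which overlapped, were 4065 to 5151 FPKM and 2439 to 4096 FPKM. The part of these lists in the rise was not tested. Where only the 4 EpRas libraries entered the fit, neither member passed (adjusted p = 0.0521 for Fn1 and 0.157 for Fbln2). Fbln2 was also lost without EpRas replicate 1 (0.0936) or 2 (0.128) and without treated EpH4 replicate 1 or 2 (0.0618 for each), while Fn1 remained called in each of these fits with 1 library left out.

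The effects in the 2 lines were compared directly through the interaction term, the effect in EpRas minus that in EpH4 cells. It was 0.49 for Fn1 (SE 0.21, limma adjusted p = 0.469, 95% interval -0.01 to 1.00). For Fbln2 it was -0.66 (SE 0.21, limma adjusted p = 0.314, 95% interval -1.15 to -0.17). For Efemp2 it was -0.51 (SE 0.26, limma adjusted p = 0.541, 95% interval -1.12 to 0.10). Thus 0 of 3 members passed by limma, against 0.802% of all tested genes, and 1 of the 3, Fbln2, had an unadjusted p under 0.05 (0.0156). The estimates were positive for Fn1 and negative for both fibulins, but none was called, so a difference between the lines in their response is not shown.

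Between the untreated lines, 0 of the 3 members were called by limma, against 17.6% of all tested genes, although Efemp2 (unadjusted p = 0.0374) and Fbln2 (unadjusted p = 0.0378) were under 0.05 before adjustment. The fold change of EpRas against EpH4 cells was 0.22 for Fn1 (SE 0.15, limma adjusted p = 0.356). It was -0.38 for Fbln2 (SE 0.15, adjusted p = 0.129 by limma) and -0.47 for Efemp2 (SE 0.18, adjusted p = 0.128 by limma). Efemp2 passed only where a treated EpRas library was left out (adjusted p = 0.0468 without replicate 1 and 0.0404 without replicate 2).

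With TGF-β, all 3 tested members differed between the lines, against 21.3% of all tested genes, and in opposite directions. Fn1 was higher in EpRas cells by 0.72 (SE 0.15, limma adjusted p = 0.0148), a ratio of 1.64. Fbln2 was lower at a log2 fold change of -1.03 (SE 0.15, limma adjusted p = 0.00299), or 0.487 times the EpH4 level. Efemp2 was likewise lower at -0.98 (SE 0.18, limma adjusted p = 0.00906), or 0.498 times. This comparison shares its 4 libraries with the comparisons of treatment above and is not independent of them. The summed fibroblast markers stood apart too, at 222 to 247 FPKM in treated EpH4 and 8.42 to 11.1 FPKM in treated EpRas cells. Most of that sum in EpH4 cells was Col1a1, at 212 against 2.19 FPKM in EpRas cells as means. Pdgfra went the other way (2.17 against 2.73 FPKM), and Dcn, Lum and Thy1 were at 0 in both groups. The sum of 8 epithelial markers was 8516 to 9023 FPKM in treated EpH4 and 2439 to 4096 FPKM in treated EpRas cells. Krt7 was at 5063 against 982 FPKM as means, and Krt14, Epcam and Cdh1 were also lower in EpRas cells. Krt18 (1031 against 1112 FPKM) and Krt19 (0 against 22.3 FPKM) went the other way. Krt5 was at 0 in both, and Krt8 varied widely (1236 ± 139 against 961 ± 565 FPKM, SD, n = 2). The part of either list in the result was not tested. With only 1 treated EpH4 library, Fbln2 alone remained called, and the adjusted p was 0.0825 and 0.115 for Fn1 and 0.0576 and 0.0766 for Efemp2 without replicates 1 and 2 respectively.

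**Figure D2:**
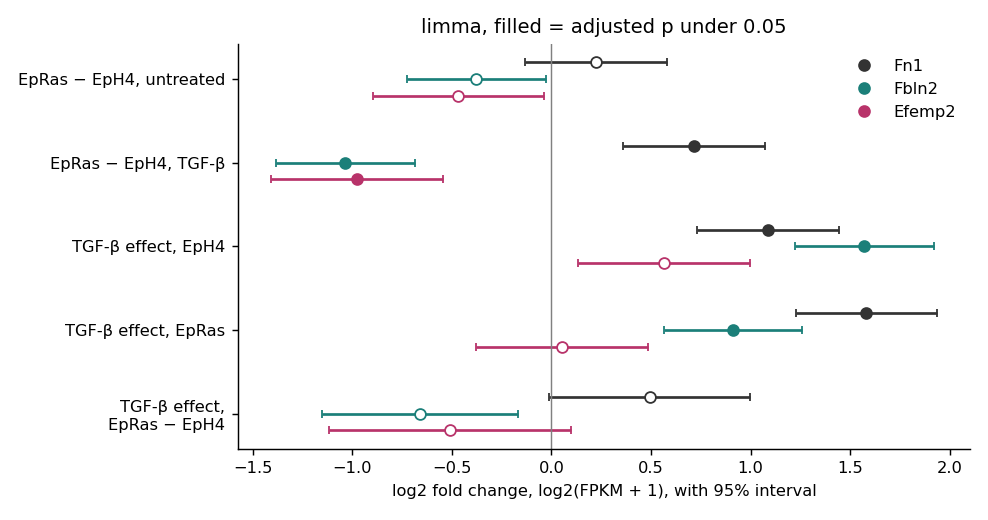
Log2 fold changes of Fn1, Fbln2 and Efemp2 from limma on log2(FPKM + 1), with 95% intervals, for the 5 comparisons of untransfected cells. Filled points have an adjusted p under 0.05. With TGF-β, Fn1 lay at 0.72 on the EpRas side while Fbln2 (-1.03) and Efemp2 (-0.98) lay on the EpH4 side.

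The 7 members under 5 FPKM were read as whole reads, since the FPKM of a gene of low expression are multiples of the value of 1 read in each library. This gave whole numbers for 5 of them. Intervals on such reads cover counting error only, because reads from amplified libraries are not independent molecules. Eln had 0 reads in 6 of the 8 untransfected libraries, 1 read in treated EpH4 replicate 1 and 2 reads in untreated EpRas replicate 1. The limit that 0 reads allow, taken as 3 reads, was 0.105 to 0.214 FPKM for Eln in those libraries. Fbln5, which encodes a fibulin that binds integrins and elastin, had 1 read in each treated EpH4 library and 0 in the other untransfected ones. For Fbln1, the founding fibulin and a partner of fibronectin, 1 read was found, in an untreated EpH4 library. Efemp1 (fibulin-3) and Fbn2 (fibrillin-2, made mainly in development) were listed at 0 in all 8.

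Fbn1 (ENSMUSG00000027204, chr2:125300594-125507993, minus strand) encodes fibrillin-1, the backbone of the microfibril. Untreated EpH4 cells gave 2 and 1 reads and treated ones 3 and 18, so the pooled ratio of 9.19 (95% exact interval 2.74 to 48.1) rested on treated replicate 2. In EpRas cells there were 2 and 3 reads without and 4 and 0 with TGF-β, a ratio of 0.914 (95% exact interval 0.181 to 4.25). Emilin1 (ENSMUSG00000029163, chr5:30913402-30921277, plus strand) encodes a glycoprotein at the interface of elastin and microfibrils. It had 1 and 1 reads in untreated and 9 and 8 in treated EpH4 cells, a ratio of 11.2 (95% exact interval 2.65 to 99.5). In EpRas cells it had 2 and 3 reads without and 1 and 0 with TGF-β, a ratio of 0.229 (95% exact interval 0.00483 to 2.04). Both treated EpH4 libraries lay above both untreated ones and both treated EpRas libraries below both untreated ones, all at levels of 0.651 FPKM or less, and the interval of the EpRas ratio includes 1. Where genes of any level above 0 entered the test, Emilin1 was called in EpH4 cells with against without TGF-β (limma log2 fold change 0.53, adjusted p = 0.044) and in treated EpRas against treated EpH4 cells (-0.56, adjusted p = 0.0204), while the effect in EpRas cells (-0.16, limma adjusted p = 0.603) and the interaction (limma adjusted p = 0.166) did not pass.

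Sequences from 250 bases before to 50 bases after the start of transcription were read from RefSeq (GRCm38.p6) for Fbln2, Efemp2, Fbn1 and Emilin1, whose levels are described by sample, to show what the promoters hold. No promoter of Fn1, Eln or Fbn2 is shown. Capitals mark CAGACA, the CAGA element bound by SMADs, and AGGAAG, the element of the PEA3 group to which Etv4 and Etv5 belong, on either strand (TGTCTG and CTTCCT when read in reverse). The AP-1 element TGANTCA and the ETS element CCGGAAG were also searched, and the PEA3 and ETS letters can overlap at GGAAG. Of 32851 mouse promoters of this length, 21.0% held CAGACA, 35.4% AGGAAG, 7.81% TGANTCA and 8.86% CCGGAAG. Fbln2 (chr6:91212514-91212813, plus strand) held none of the 4. Efemp2 has several starts, of which the first (chr19:5473696-5473995) and the next (chr19:5474440-5474739) are given, with AGGAAG 197 and its reverse 76 bases before the first start and the reverse 5 bases after the next one. Fbn1 (chr2:125506389-125506688, minus strand) held none, and Emilin1 (chr5:30913536-30913835, plus strand) held CAGACA 129 bases and AGGAAG 41 bases before its start. A match is a run of letters and not a site shown to be used, and its absence concerns these windows alone.
Fbln2: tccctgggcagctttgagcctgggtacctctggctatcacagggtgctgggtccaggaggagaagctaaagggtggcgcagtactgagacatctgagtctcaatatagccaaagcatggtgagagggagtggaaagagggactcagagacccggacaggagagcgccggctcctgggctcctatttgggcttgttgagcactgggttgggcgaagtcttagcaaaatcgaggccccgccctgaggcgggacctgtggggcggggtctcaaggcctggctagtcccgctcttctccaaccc
Efemp2, first start: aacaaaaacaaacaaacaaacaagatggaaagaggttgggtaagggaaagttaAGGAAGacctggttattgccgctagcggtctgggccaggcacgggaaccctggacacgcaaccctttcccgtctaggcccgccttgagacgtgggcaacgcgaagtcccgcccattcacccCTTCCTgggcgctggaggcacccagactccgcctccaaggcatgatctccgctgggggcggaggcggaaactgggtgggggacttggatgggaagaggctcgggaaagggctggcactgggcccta
Efemp2, next start: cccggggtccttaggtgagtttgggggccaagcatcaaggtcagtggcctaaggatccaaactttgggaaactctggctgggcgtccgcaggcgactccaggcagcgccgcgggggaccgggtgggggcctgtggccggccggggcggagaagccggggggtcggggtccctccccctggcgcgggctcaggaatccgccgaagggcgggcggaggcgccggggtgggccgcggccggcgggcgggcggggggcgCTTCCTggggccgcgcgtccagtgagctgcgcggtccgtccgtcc
Fbn1: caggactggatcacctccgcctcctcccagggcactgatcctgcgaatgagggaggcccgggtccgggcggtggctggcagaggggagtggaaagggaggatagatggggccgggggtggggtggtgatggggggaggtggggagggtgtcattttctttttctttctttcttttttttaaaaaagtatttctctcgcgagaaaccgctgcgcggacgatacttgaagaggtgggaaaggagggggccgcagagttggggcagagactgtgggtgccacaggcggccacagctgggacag
Emilin1: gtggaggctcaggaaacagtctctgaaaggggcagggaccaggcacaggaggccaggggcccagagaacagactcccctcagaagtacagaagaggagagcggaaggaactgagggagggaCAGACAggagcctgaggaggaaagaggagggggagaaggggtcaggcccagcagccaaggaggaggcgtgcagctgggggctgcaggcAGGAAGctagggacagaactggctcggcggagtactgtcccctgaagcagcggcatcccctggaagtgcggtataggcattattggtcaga

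The siRNA libraries asked what knockdown of Etv4/5 in EpRas cells does to these genes. With 1 library for each condition, a gene is counted where the mean log2 difference of the 2 pairs from siNC reached 2-fold. A limma fit that takes the pairs as replicates of the knockdown, with 2 residual degrees of freedom, was added after the data were seen. Its spread is the difference between 2 unlike pairs, and siNC, with 1 library for each condition, has none of its own and is assumed to vary like them, so a gene that did not pass is not shown to be unaffected. The targets were at lower levels with both pairs. Etv4 was at 57.4 FPKM in siNC cells against 11.6 and 27.9 FPKM in the cells given pairs 1 and 2, and at 64.3 against 12.6 and 18.9 FPKM in treated cells. For Etv5 the levels were 8.85 against 1.61 and 1.26 FPKM untreated, and 5.34 against 1.24 and 1.20 FPKM treated.

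In the absence of TGF-β, the level of Fn1 was 204 FPKM in siNC cells, and it was 392 and 236 FPKM in the cells given pairs 1 and 2. With TGF-β the levels were 659, 1718 and 1026 FPKM in the same order. Each pair gave more Fn1 than siNC in both conditions, pair 1 more than pair 2. Untransfected EpRas cells, quantified separately, had 314 and 297 FPKM without and 894 and 935 FPKM with TGF-β. Both siNC libraries lay below these levels, and so did pair 2 without TGF-β. The ratios to siNC were 1.92 and 1.16 without and 2.61 and 1.56 with TGF-β. The mean log2 difference was 0.57 without TGF-β and 1.01 with it, where pair 2 on its own gave 0.64 and so did not reach 2-fold. The interval that Cuffdiff gives for Fn1 was wide, from 0 to 11181 FPKM for pair 1 with TGF-β and from 29.7 to 1288 FPKM for siNC with TGF-β, so these intervals overlap. They were wide in untransfected cells as well, at 0 to 5814 and 0 to 7121 FPKM in the treated EpRas libraries and 0 to 1226 and 0 to 1126 FPKM in the treated EpH4 libraries, where they overlap those of the untreated libraries too (12.1 to 615 and 32.4 to 561 FPKM in EpRas, 33.6 to 447 and 34.8 to 532 FPKM in EpH4 cells).

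Fbln2 and Efemp2 went the other way without TGF-β. Fbln2 was at 161, 87.2 and 117 FPKM in untreated cells given siNC, pair 1 and pair 2, and at 330.4, 241 and 365 FPKM in treated cells. For Efemp2 the levels were 16.9, 8.71 and 10.3 FPKM in untreated and 23.4, 13.8 and 23.1 FPKM in treated cells. Both pairs were below siNC for both genes in the absence of TGF-β. In its presence pair 1 was below siNC for both, with 1 library behind each value. The Cuffdiff intervals of each pair overlapped those of siNC in both conditions. With TGF-β those of pair 1 and siNC were 103 to 379 and 119 to 542 FPKM for Fbln2. For Efemp2 they were 5.44 to 22.2 and 10.7 to 36.1 FPKM. The mean log2 differences without TGF-β were -0.67 for Fbln2 and -0.77 for Efemp2. With TGF-β the pairs split, at -0.45 and 0.14 for Fbln2 and -0.72 and -0.02 for Efemp2. By the mean of the pairs, 0 of the 3 members passed 2-fold without TGF-β, against 7.13% of all 9094 genes, and 1 of 3, Fn1, with TGF-β, against 6.63%. By limma with the pairs as replicates, 0 of 3 were called without TGF-β, against 0.231% of all tested genes, and 0 of 3 with it, against 0.077%. The limma 95% interval of the difference of Fn1 with TGF-β was -0.20 to 2.22 (adjusted p = 0.445), and the lowest adjusted p of the 3 members in either condition was 0.382, for Efemp2 without TGF-β. No member had an unadjusted limma p under 0.05 here (0 of 3 in each condition), the lowest being 0.0838.

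**Figure D3:**
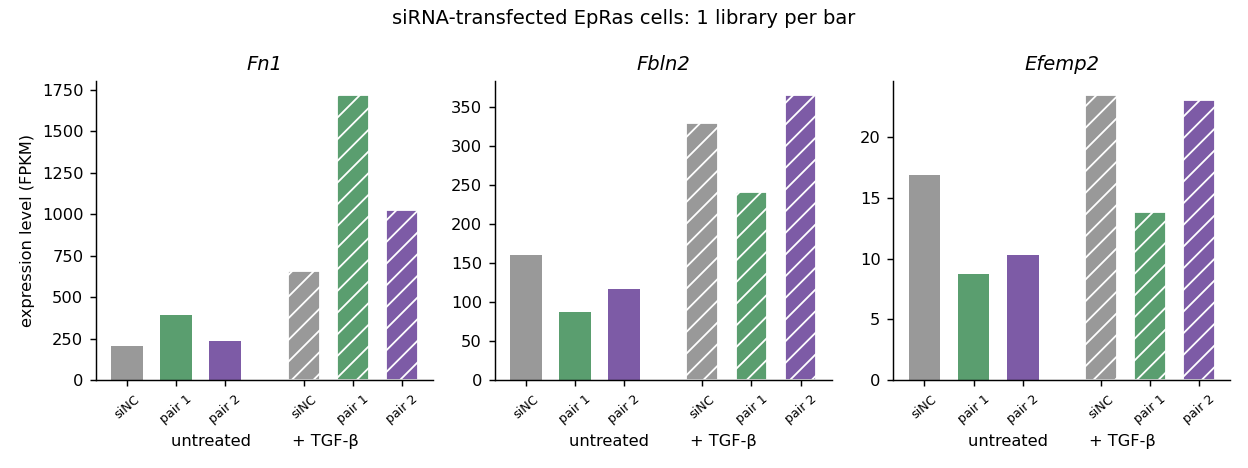
Expression level (FPKM) of Fn1, Fbln2 and Efemp2 in EpRas cells transfected with siNC or with siRNA pair 1 or 2 against Etv4 and Etv5, untreated or treated with TGF-β (hatched). Each bar is 1 library. Fn1 was highest with pair 1 and TGF-β (1718 FPKM), and Fbln2 and Efemp2 were lower than siNC with both pairs in untreated cells.

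The response to TGF-β was present in the transfected cells. In siNC cells the treated level was 3.22 times the untreated one for Fn1, 2.06 times for Fbln2 and 1.39 times for Efemp2, so 2 of 3 members passed 2-fold where 5.74% of all genes did. With pair 1 the ratios of treated to untreated cells were 4.39 for Fn1, 2.76 for Fbln2 and 1.59 for Efemp2. With pair 2 they were 4.34, 3.13 and 2.24 for the same genes. All 3 ratios were larger with either pair than with siNC, with 1 library behind each value. These comparisons share the same siNC libraries and are not independent, and the share of all genes that did likewise was not counted. Over all 9094 genes the median log2 difference with TGF-β was 0 with siNC, 0.00165 with pair 1 and 0.0155 with pair 2. Over the 3 siRNA treatments together, a limma fit with TGF-β as a term was also added after the data were seen. It called 2 of 3 members, against 4.17% of all tested genes. The 3 treatments serve in it as replicates of 1 common TGF-β effect, with 2 residual degrees of freedom. Its spread is the difference in that effect between unlike siRNAs, and not that between replicate cultures. Fn1 was higher with TGF-β by 1.98 (SE 0.15, limma adjusted p = 0.0105) and Fbln2 by 1.38 (SE 0.17, limma adjusted p = 0.02), while Efemp2 did not pass (0.72, SE 0.17, limma adjusted p = 0.0893). Untransfected EpRas cells, quantified separately, had ratios of 2.997 for Fn1, 1.89 for Fbln2 and 1.05 for Efemp2.

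Among the members of low expression, Fbn1 stood apart in the transfected cells. It had 1 read with siNC, 14 with pair 1 and 11 with pair 2 without TGF-β, and 38, 381 and 96 reads with TGF-β. The levels with TGF-β were 0.303, 3.83 and 1.08 FPKM. Treated cells were above untreated cells with every siRNA, by 21.8 times with siNC (95% exact interval 3.69 to 885), 26.8 times with pair 1 (15.8 to 49.5) and 8.98 times with pair 2 (4.80 to 18.6). With TGF-β, pair 1 was 12.7 times siNC (95% exact interval 9.05 to 18.2) and pair 2 was 3.56 times siNC (2.42 to 5.32). Even so Fbn1 remained under 5 FPKM in all 14 libraries. These intervals compare single libraries and not conditions.

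Emilin1 had 4, 6 and 10 reads with siNC, pair 1 and pair 2 without and 5, 12 and 10 reads with TGF-β, and the 95% exact interval of each ratio computed between these libraries included 1. Fbln1 had 4 reads with pair 1 and TGF-β and 0 in the other 5 siRNA libraries. Eln had at most 1 read and Fbln5 at most 1 read in any of them. Efemp1 was listed at 0.0577 FPKM with pair 2 without TGF-β and Fbn2 at 0.00753 FPKM with siNC and TGF-β, and each was listed at 0 in the other 5.

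The summed level of the contractile markers was highest, as those of Fn1 and Fbn1 were, in the cells that received siRNA pair 1. The sum of Acta2, Myh11, Cnn1 and Tagln was 1.36 FPKM with siNC in either condition, 27.6 and 250.3 FPKM with pair 1 without and with TGF-β, and 0.759 and 22.6 FPKM with pair 2. Acta2, smooth muscle actin, made up 202 FPKM of the highest sum and Tagln 47.9 FPKM. The fibroblast sum was 5.50 and 11.7 FPKM with siNC, 25.7 and 43.9 FPKM with pair 1 and 16.6 and 22.4 FPKM with pair 2, with Lum and Thy1 listed at 0 in all of them. Col1a1 gave 14.3 and 27.7 FPKM of the sums with pair 1, and Pdgfrb 9.35 and 12.0 FPKM of those with pair 2. Pdgfra was at 3.21, 1.76 and 3.67 FPKM with siNC, pair 1 and pair 2 without TGF-β. With TGF-β it went the other way from the sum, at 6.79, 2.33 and 3.86 FPKM. Col3a1 and Dcn stayed at or below 1.07 FPKM. The part of the contractile and fibroblast markers in the levels of Fn1 and Fbn1 was not tested.

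**Figure D4:**
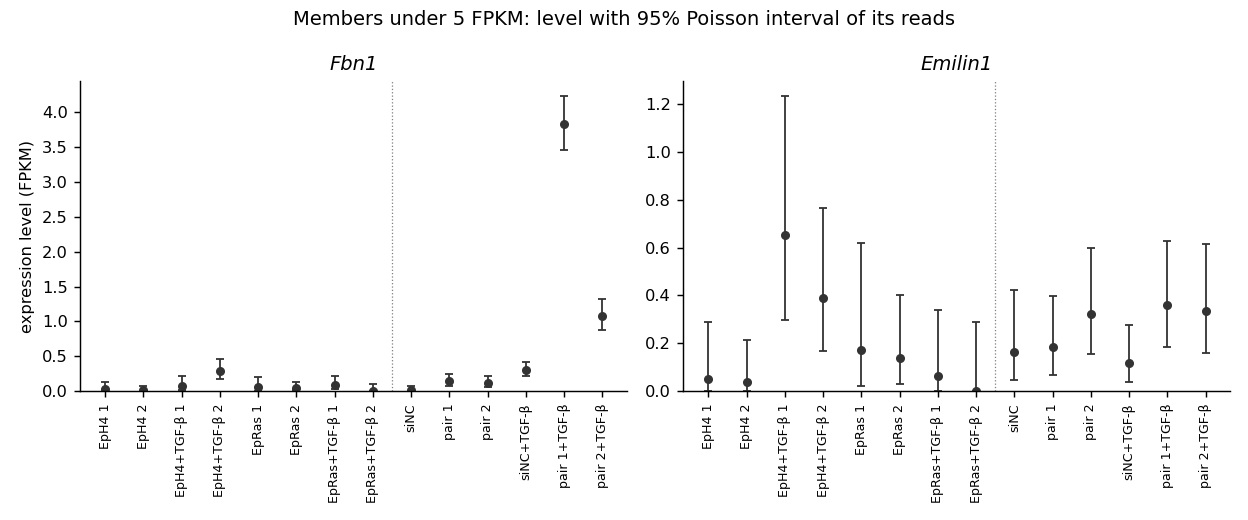
Expression level (FPKM) of Fbn1 and Emilin1 in all 14 libraries, with the 95% Poisson interval of the reads behind each value, which covers counting error only. The dotted line separates untransfected cells from siRNA-transfected EpRas cells, which were quantified separately. Fbn1 reached 3.83 FPKM with pair 1 and TGF-β, and Emilin1 was highest in treated EpH4 cells.

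The partners of these proteins were taken as whole lists, and their calls stand beside the shares of all tested genes called, 9.4% for TGF-β in EpH4 and 3.82% in EpRas cells, 17.6% between untreated and 21.3% between treated lines. Of 11 microfibril-associated and latent TGF-β binding proteins, 6 were tested, and their median log2 fold change with TGF-β was 0.17 in EpH4 cells and -0.19 in EpRas cells, beside -0.02 for all genes in each line. In EpH4 cells 1 rose, Ltbp3 (0.73, limma adjusted p = 0.0234), and 1 fell, Thsd4, a fibrillin-binding ADAMTS-like protein (-0.99, limma adjusted p = 0.0129). In EpRas cells 0 rose and 1 fell, again Thsd4 (-1.05, limma adjusted p = 0.0168), a call lost where only the EpRas libraries entered the fit. Between untreated lines, Ltbp1 (0.90, adjusted p = 0.0062) and Ltbp2 (0.93, adjusted p = 0.0121) were higher and Thsd4 (-1.12, adjusted p = 0.00501) was lower in EpRas cells by limma. With TGF-β, 2 were higher, Ltbp1 (0.68) and Ltbp2 (0.65), and 2 were lower, Ltbp3 (-0.61) and Thsd4 (-1.18). Leaving out 1 treated EpH4 library, either of them, ended the calls on Ltbp1, Ltbp2 and Ltbp3 between treated lines and on Ltbp3 and Thsd4 for TGF-β in EpH4 cells (limma adjusted p up to 0.106, 0.176, 0.158, 0.184 and 0.122 over the alternatives). Either treated EpRas library ended the call on Ltbp2 between treated lines and treated EpRas replicate 1 that on Ltbp3, either untreated EpH4 library ended that on Ltbp3 in EpH4 cells and untreated EpH4 replicate 2 that on Thsd4, untreated EpH4 or EpRas replicate 1 that on Ltbp2 between untreated lines (up to 0.0743), and either untreated or the first treated EpRas library that on Thsd4 in EpRas cells (up to 0.134).

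Of 6 crosslinking enzymes, 4 were tested, with a median log2 fold change with TGF-β of -0.06 in EpH4 and -0.68 in EpRas cells. Lox, the lysyl oxidase that gives the family its name, was at or below 0.14 FPKM in the untransfected cells. Loxl4 fell with TGF-β in both lines (-1.58, limma adjusted p = 0.000778, in EpH4 cells and -1.21, limma adjusted p = 0.00489, in EpRas cells). Tgm2, a transglutaminase that crosslinks fibronectin, also fell in both (-0.71, limma adjusted p = 0.0224, and -1.34, limma adjusted p = 0.00302). In a fit of the EpRas libraries alone, neither passed in EpRas cells (limma adjusted p = 0.0853 for Loxl4 and 0.0716 for Tgm2). Loxl3 rose in EpH4 cells (1.57, limma adjusted p = 0.00711), so 1 rose and 2 fell there and 0 rose and 2 fell in EpRas cells. Between the untreated lines Loxl3 was higher (2.38, limma adjusted p = 0.000694) and Loxl1 (-1.24, limma adjusted p = 0.00382) and Tgm2 (-1.08, limma adjusted p = 0.0026) were lower in EpRas cells. With TGF-β, Loxl4 was higher (0.79) and Loxl1 (-1.98) and Tgm2 (-1.72) were lower. Among the untransfected groups Loxl1 reached 5 FPKM only in treated EpH4 cells, at 7.12 FPKM as a mean. It was at 4.35 FPKM in untreated EpH4 cells, and at 1.26 and 1.05 FPKM in untreated and treated EpRas cells. The group where it was high thus brought Loxl1 into the test, so its calls carry no weight of their own. The call on Tgm2 in EpH4 cells was lost without any 1 of the 4 EpH4 libraries, and that on Loxl3 in EpH4 cells without untreated or treated EpH4 replicate 2 (limma adjusted p up to 0.168 and 0.0714). That on Loxl4 between treated lines was lost without either treated EpH4 library (up to 0.0778).

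Of 10 receptors of fibronectin and other RGD proteins, 6 were tested, and 4 of these rose and 0 fell with TGF-β in EpH4 cells. Their median log2 fold change was 1.03 in EpH4 and 0.35 in EpRas cells. Of these 4, Itgb6 reached 5 FPKM only in treated EpH4 cells, at 5.40 FPKM as a mean. It was at 2.28 FPKM in untreated EpH4 cells, and at 0.632 and 0.785 FPKM in untreated and treated EpRas cells. The group where it was high thus brought Itgb6 into the test, so its calls carry no weight of their own. Itga5, the α chain of the main fibronectin receptor, was at 20.2 and 20.9 FPKM without and 120 and 113 FPKM with TGF-β in EpH4 cells. In EpRas cells it was at 45.0 and 46.8 FPKM without and 154 and 198 FPKM with TGF-β. It rose by 2.45 (limma adjusted p = 0.000242) in EpH4 and by 1.91 (limma adjusted p = 0.00143) in EpRas cells, and so moved beside Fn1 in both lines, with the call in EpRas cells lost where only the EpRas libraries entered the fit (adjusted p = 0.0521), as for Fn1. Itgb5 (1.60), Itgav (1.09) and Itgb6 (0.97), whose products form integrins αvβ5 and αvβ6, also rose in EpH4 cells, while Itgav was no longer called without any 1 of the 4 EpH4 libraries, nor Itgb6 without untreated EpH4 replicate 1 or treated EpH4 replicate 2 (limma adjusted p up to 0.0855 and 0.0851). In EpRas cells 1 rose, Itga5, and 1 fell, Sdc4 (-0.89, limma adjusted p = 0.0304), a syndecan that binds the heparin-binding domain of fibronectin. The difference between the lines was called for Itgb5 (-1.71, limma adjusted p = 0.0287) and for 0 of the other 5, where 0.802% of all tested genes were called. That call passed in 7 of the 15 alternatives run for it, and of the fits with 1 library left out it passed only without treated EpRas replicate 2. Between untreated lines, 2 receptors were higher in EpRas cells, Itga5 (1.12) and Itgav (0.73), and 1 was lower, Itgb6 (-0.996). With TGF-β, Itga5 was higher (0.58) and Itgb5 (-1.92) and Itgb6 (-1.84) were lower in EpRas cells. The call on Sdc4 was lost without any 1 of the EpRas or treated EpH4 libraries, that on Itgav between untreated lines without any 1 of the untreated or treated EpH4 or untreated EpRas libraries, that on Itgb6 there without untreated EpH4 replicate 2 or EpRas replicate 1, and that on Itga5 between treated lines without any library but treated EpRas replicate 1 (limma adjusted p up to 0.194, 0.136, 0.0687 and 0.212). Of the relatives of the set, 6 were listed, Fbln7, Hmcn1, Emilin2, Emilin3, Mmrn1 and Mmrn2, and 0 of these reached 5 FPKM.

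**Figure D5:**
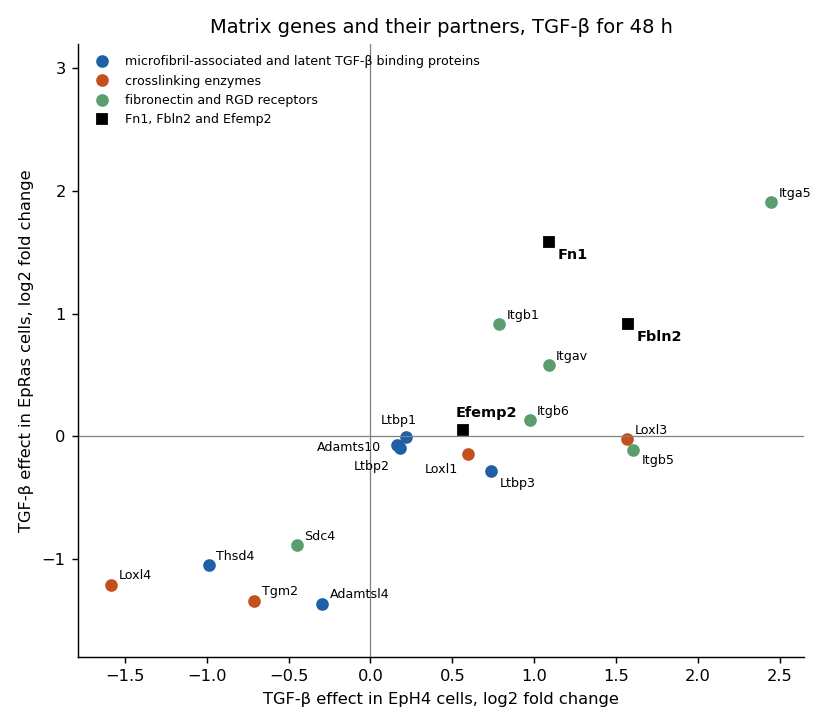
Log2 fold change with TGF-β for 48 h in EpH4 cells (horizontal axis) and EpRas cells (vertical axis), by limma on log2(FPKM + 1), for the tested partner genes and for Fn1, Fbln2 and Efemp2 (squares). Itga5 lies nearest to the upper right corner (2.45 and 1.91), and Loxl4, Tgm2 and Thsd4 lie below 0 on both axes.

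In the siRNA libraries, knockdown of Etv4/5 put 1 of 5 tested microfibril-associated and latent TGF-β binding proteins past 2-fold in each condition, 1 of 3 tested crosslinking enzymes without and 0 with TGF-β, and 0 of 6 receptors, beside 7.13 and 6.63% of all genes. All of those past 2-fold were lower. Adamtsl4, a microfibril-associated ADAMTS-like protein, was at 17.9 FPKM in siNC cells against 5.45 and 8.05 FPKM with the pairs, and at 18.0 against 2.62 and 2.86 FPKM with TGF-β. Untransfected EpRas cells, quantified separately, had 6.81 and 4.28 FPKM without and 1.14 and 1.89 FPKM with TGF-β, all below siNC. The lower Adamtsl4 level with the pairs is thus relative to a single siNC library in each condition. Loxl3 was at 12.4, 1.60 and 8.20 FPKM without TGF-β, where the lower mean rested on pair 1. With TGF-β in siNC cells, 2 of 6 receptors passed 2-fold, beside 5.74% of all genes, Itga5 (57.3 to 188 FPKM) and Itgb3 (0.217 to 5.81 FPKM). Itgb3 reached 5 FPKM only in treated libraries, so its rise brought it into the test and it adds no weight to that count. The 5 and 3 tested genes of the other 2 lists held 0 past 2-fold there.

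The genes with the pattern most like each member were found by Pearson's r of log2(FPKM + 1) over the 8 untransfected libraries, a description that rests on 4 groups sharing the same libraries. For Fn1 they included Acta1 (r = 0.985) and Becn1 (0.983). Over the 6 siRNA libraries the same pairs had r = 0.872 and 0.788. For Fbln2 they were Mcam (r = 0.994), Palld (0.991) and Zmiz1 (0.991), with 0.521, 0.741 and 0.885 over the siRNA libraries. Those of Efemp2 were Atp6v1e1 (r = 0.999), B4galt3 (0.988) and Abhd4 (0.985), with 0.792, 0.791 and 0.519. Among the members, Fbln2 and Efemp2 had r = 0.778 over the 8 and 0.926 over the 6 libraries, and Fn1 had 0.584 and 0.670 with Fbln2 and 0.013 and 0.372 with Efemp2. Fn1 and Efemp2 thus had unlike patterns over the untransfected groups, and the fibulins were closer to each other than either was to Fn1.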

How the data were processed

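Directional RNA-seq on the Ion Proton gave 14 libraries of EpH4 and EpRas cells. Untransfected and siRNA-transfected samples were processed independently by the authors. The authors aligned the reads to mm10 with TopHat2 2.0.11, which calls Bowtie2, and the deposited FPKM per gene and library came from Cuffdiff of Cufflinks 2.2.0, in 1 run for each of the 2 tables. The versions are those of the submitters' processing notes. FPKM is relative to the library total, so an increase of a few abundant genes lowers all others. Total reads are not given in the tables, and the relative depth was read from the steps between low FPKM values. No column of values per sample was left unused (0).

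Genes without an OK status (3 and 2) were left out. Genes with a maximum of at least 5 FPKM over a table, a filter the study states for its gene set analysis of the siRNA libraries, were tested on log2(FPKM + 1), 9100 untransfected and 9094 siRNA genes, and the reads of members under it were accepted as whole within 0.02 reads or 0.002 of their number. The 4 untransfected groups were fitted in limma 3.58.1 (R 4.3.3) with 1 mean for each group and no block, two-sided, with Benjamini-Hochberg adjustment over all genes tested. The analysis was tested on simulated data. Replicate numbers share no stated batch, and the deviations of same-numbered libraries correlated at -0.35 to 0.08, so the numbers do not pair the libraries. The siRNA table has 1 library for each condition, so its differences are given as values. After the data were seen, 2 limma fits were added. In 1 of them the 2 siRNA pairs are replicates of the knockdown, and in the other the 3 siRNA treatments are replicates of the TGF-β effect. No test was made across the 2 tables.

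The 10 members were named by symbol, and the partners, markers and tests were chosen with earlier results of these data known. The rule for named genes was all members, at most 4 called genes of each partner list and comparison with the largest change, and the 3 genes most like each of the 3 tested members, of which 1 is not reported here. Gene positions come from the GENCODE annotation of mm10, which shares 20911 gene symbols with the deposited tables, and 99.1% of these genes overlapped in position. Ratios of reads have Clopper-Pearson and levels Poisson intervals (95%). Alternatives were the pseudocount (0.1 and 5 FPKM), the filter, the fit to the compared groups alone, the replicate block, median centring, a trended prior and leaving out each library. Other steps used scipy 1.17.1, pandas 2.3.3, numpy 2.4.6 and Python 3.11.15.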

Additional observations from a re-analysis of the deposited data

Results flagged for a closer look

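Emilin1 was higher in both treated than in both untreated EpH4 libraries and lower in both treated than in both untreated EpRas libraries. From the group means, the difference in EpH4 cells was 0.54 on the log2(FPKM + 1) scale. The level was 0.0453 and 0.52 FPKM in EpH4 cells and 0.155 and 0.0304 FPKM in EpRas cells, without and with TGF-β, from 2 and 17 reads and from 5 and 1 reads. The difference between the lines was not tested among genes of at least 5 FPKM, since Emilin1 lies under that level. With all genes above 0 in the test, it was -0.70 (limma adjusted p = 0.166), and the effect in EpRas cells alone did not pass (-0.16, limma adjusted p = 0.603), where the ratio of reads was 0.229 (95% exact interval 0.00483 to 2.04).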

How the results depend on the processing

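The counts of called members held to within 1.5 times in all 5 comparisons under the other pseudocounts, filters, median centring and trended prior. With no filter, Emilin1 was an added call for TGF-β in EpH4 cells and for EpRas against EpH4 cells with TGF-β. Fitted with only the groups compared, TGF-β in EpRas cells gave 0 called members, and the call count of all genes fell from 348 to 45. Replicates differed most in treated EpRas cells (r = 0.912 across genes, median SD 0.214 on log2(FPKM + 1)). They differed least in treated EpH4 cells (r = 0.982, median SD 0.0914). The main fit takes 1 spread for each gene over the 4 groups. Leaving out 1 library gave 0 to 1 called members between the untreated lines, 1 to 3 between the treated lines, 1 to 3 for TGF-β in EpH4 cells, 1 to 2 for TGF-β in EpRas cells and 0 for the interaction. The limma fit with a lone library assumes that it varies like the other groups. The log2 fold change of Efemp2 with TGF-β in EpRas cells lay between -0.18 and 0.28 over these fits. With the replicate block, the called members were 0, 3, 2, 2 and 0 in the same order as the 5 comparisons (untreated lines, treated lines, TGF-β in EpH4, TGF-β in EpRas, interaction), so no member call changed, while the block ended the calls on the partners Itga5, Ltbp2 and Ltbp3 between treated lines, Itgav between untreated lines, Ltbp3 and Tgm2 for TGF-β in EpH4 cells, Sdc4 in EpRas cells and Itgb5 for the interaction (limma adjusted p 0.0578 to 0.0866), and all calls went from 855 to 547 for TGF-β in EpH4 cells, from 348 to 222 in EpRas cells and from 73 to 31 for the interaction. Over all genes, the mean filter of 10 FPKM gave 880, 1092, 559, 225 and 24 calls in place of 1598, 1935, 855, 348 and 73, from 6187 genes tested, the trended prior gave 45 calls for the interaction, the test without a filter gave 117, and leaving out 1 library gave 736 to 2104, 816 to 2370, 242 to 1153, 135 to 407 and 11 to 133 calls in the order above. Of 34 calls on partner genes, 14 passed under every alternative run for them, and 86 of 529 alternatives lost a call. These alternatives were run after the data were seen. Fitting only the groups compared ended calls on Itga5, Loxl4, Sdc4, Tgm2 and Thsd4 for TGF-β in EpRas cells and on Itgb6 in EpH4 cells. It also ended those on Itga5, Ltbp1, Ltbp2 and Ltbp3 between treated lines and on Itgav and Ltbp2 between untreated lines. A pseudocount of 0.1 FPKM ended that on Itga5 between treated lines, and 5 FPKM that on Itgb6 between untreated lines. The trended prior ended that on Itgb6 in EpH4 cells. With siRNA pair 2 alone, 0 members passed 2-fold with TGF-β, and Fbln2 went to 0.14. The cause of these changes was not tested. Depth limits the 7 members of low expression, and 1 read was worth up to 0.0885 FPKM among the 5 with whole reads.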
